A study of Mus musculus with 16 samples.

Results

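The genes described are 10 that encode lipid droplet proteins in mouse liver: the perilipins Plin2, Plin3, Plin4 and Plin5, the CIDE genes Cidea, Cideb and Cidec, the fat storage-inducing genes Fitm1 and Fitm2, and G0s2. They were chosen by name, as the table entries whose symbol equals one of these names, out of 55487 entries. Each symbol matched 1 entry, and all 10 passed the filter on low counts that left 13905 genes for testing.

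Lipid droplets are the organelles in which hepatocytes store triglyceride, a core of neutral lipid under a phospholipid monolayer that carries proteins. Perilipins coat that surface and limit access of lipases to the core. CIDE proteins gather at contacts between droplets and let lipid pass from the smaller to the larger one. FITM proteins sit in the endoplasmic reticulum and take part in droplet formation, and G0s2 binds and inhibits adipose triglyceride lipase, the product of Pnpla2. In fatty liver, Cidea, Cidec and Plin4 are known as genes that respond to the nuclear receptor PPAR gamma, and Plin2 and Plin5 as genes that respond to PPAR alpha.

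RNA was taken from livers of mice on a high-fat diet, all of strain C57/Bl6J and genotype J1 J2 lf/lf, in which the design text places the change of JNK splice form in hepatocytes. JNK1 and JNK2 (genes Mapk8 and Mapk9) are stress-activated kinases whose transcripts carry either of the alternative exons 7a and 7b. There were 5 GFP libraries (control), 5 Cre libraries (named for 7a) and 6 Flpo libraries (named for 7b). The groups also bear the names of different proteins, and any effect of these cannot be told apart from that of the splice form. The sources used here state neither age and sex, nor the length of the diet, nor the vector. The labels do not say that libraries of a group came from separate mice, so p-values measure the spread between libraries, and title numbers run in blocks by group, so that any effect of handling order and the group cannot be told apart.

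Estimated counts summed to between 27929393 and 36043322 per library, with 17067 to 18257 genes above 0. Gene totals cannot show which exon was used: Mapk8 lay between 8.12 and 15.1 CPM (counts scaled by each library's TMM-adjusted total) and Mapk9 between 23.3 and 61.7 CPM over all libraries, and neither was called in any comparison. The summed level of 10 hepatocyte markers was 68292 to 97838 TPM, the deposited length-corrected unit, over all libraries. Cre replicate 5 stood apart for several droplet genes and is described separately, and the droplet gene results that rest on it are given with and without it.

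RefSeq windows of build GRCm38.p6 show the sequence in front of genes called in Cre against GFP, other than Cidea. They are printed for Plin2, which rose in Cre, and Plin4 and Fitm1, which fell. Each runs 5′ to 3′ from 250 bases before the annotated start to 5 bases after it. Capitals mark matches to AGGTCA, the word of which PPAR and RXR sites hold 2 copies with 1 base between, to CACGTG, an E-box bound by clock factors among others, or to TATAAA, on either strand.
Plin2, chr4:86670055-86670309, minus strand: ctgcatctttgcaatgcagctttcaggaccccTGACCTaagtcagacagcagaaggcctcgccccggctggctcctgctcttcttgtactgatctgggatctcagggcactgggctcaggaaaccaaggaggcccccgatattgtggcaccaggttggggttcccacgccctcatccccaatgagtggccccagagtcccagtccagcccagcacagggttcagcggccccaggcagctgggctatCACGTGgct
Plin4, chr17:56109778-56110032, minus strand: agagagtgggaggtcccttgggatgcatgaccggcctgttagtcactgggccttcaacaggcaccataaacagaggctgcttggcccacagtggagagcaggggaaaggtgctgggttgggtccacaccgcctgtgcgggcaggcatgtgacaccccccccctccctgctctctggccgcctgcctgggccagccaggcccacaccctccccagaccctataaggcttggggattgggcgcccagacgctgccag
Fitm1, chr14:55575424-55575678, plus strand: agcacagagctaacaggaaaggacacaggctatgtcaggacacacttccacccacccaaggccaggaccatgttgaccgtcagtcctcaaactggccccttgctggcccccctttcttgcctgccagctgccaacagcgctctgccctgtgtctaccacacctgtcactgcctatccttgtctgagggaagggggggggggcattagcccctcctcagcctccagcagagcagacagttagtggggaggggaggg

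The windows searched reached 50 bases past the start and covered 11 starts of 9 genes. Cidea was left out of the search, so its sequence was not examined. AGGTCA was found in 3 of the 11 windows, that of Plin2 and both of Plin5, against 16.3% of 32851 RefSeq windows of the same length. CACGTG was found in 1, in Plin2 at 4 bases before the start, against 7.15% of windows. TATAAA was found in 1, in Cideb, against 13.6%. The spaced repeat of AGGTCA was in none of the 11 and in 0.0396% of all windows. Plin4 and Fitm1 held none of these letters in their windows.

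On the scale of TPM, which corrects for transcript length and so allows genes to be compared, Plin2 was the most abundant of the 10 genes in every group. In GFP livers it averaged 678 ± 160 TPM (SD, n = 5), followed by G0s2 at 421 ± 68.9, Cideb at 344 ± 14.1 and Fitm1 at 140 ± 13.8. The next levels were Plin5 at 52.8, Cidec at 51.3 and Fitm2 at 29.1, and the lowest were Plin3 at 14.8, Cidea at 13.6 and Plin4 at 9.70 TPM. Neighbours in this order overlapped between libraries except between Cideb and Fitm1, Fitm1 and Plin5, and Fitm2 and Plin3.

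The order changed at its lower end. In Cre livers Plin4 averaged 1.43 ± 0.339 and Cidea 0.643 ± 0.461 TPM, and Fitm1 stood at 39.7 ± 17.7. In Flpo livers Cidea stood at 41.3 ± 29.0 TPM and Plin4 at 14.6 ± 2.78. The summed level of all 10 genes overlapped across groups, with 1475 to 1993 TPM in GFP, 1268 to 2437 in Cre and 1403 to 1757 in Flpo livers, Plin2 being the largest term.

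**Figure D1:**
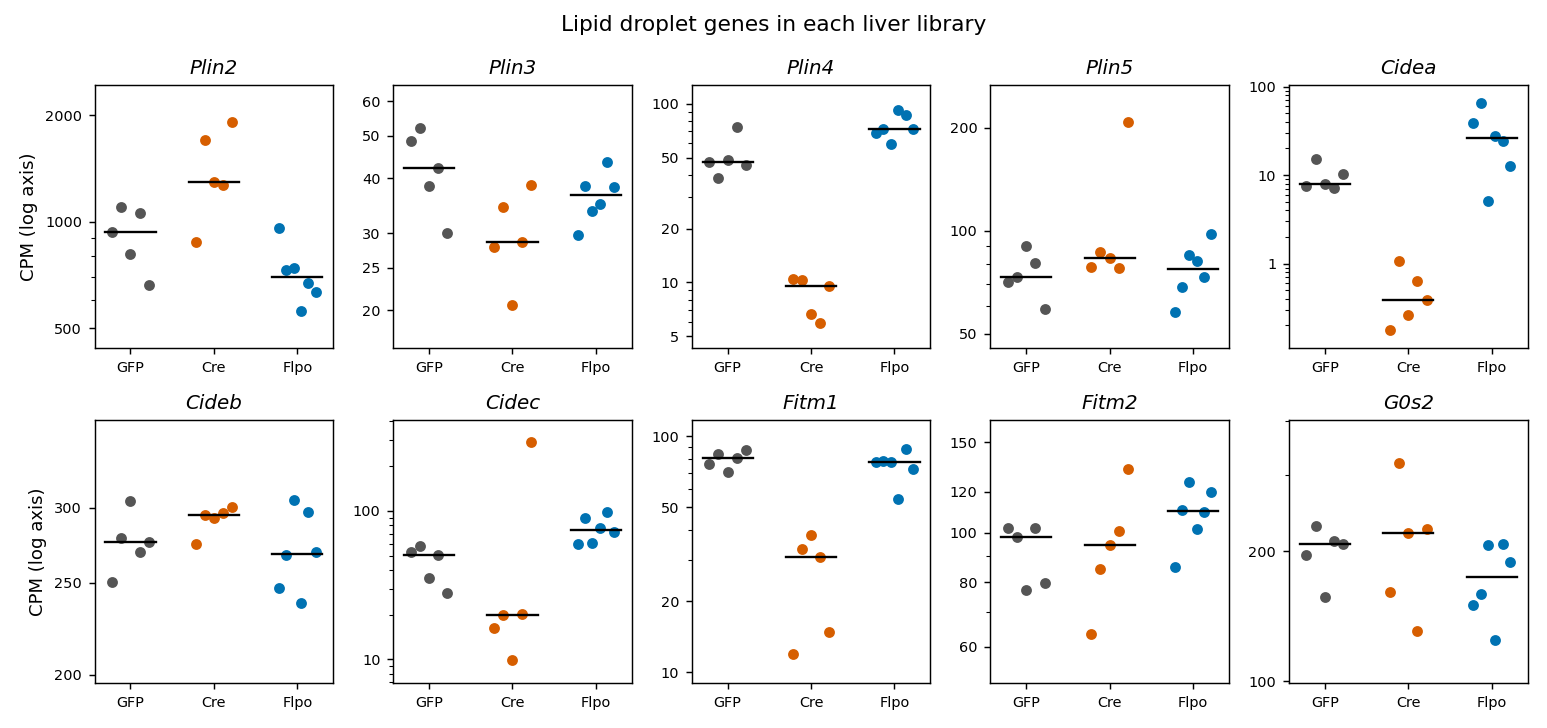
Each panel plots 1 gene in CPM on a log axis, with 1 point per library (5 GFP, 5 Cre, 6 Flpo) and a bar at the group median. Cre libraries lie below all others for Plin4, Cidea and Fitm1, and Cre replicate 5 lies far above the other Cre libraries for Cidec (289 CPM) and Plin5 (208 CPM).

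Cre livers (named for 7a) against GFP livers (control) gave 4 called genes of the 10 at an adjusted p under 0.05. Plin4, Cidea and Fitm1 fell and Plin2 rose. The 4 called genes are 40% of the 10, beside 9.55% of all 13905 genes tested. The 10 were chosen with earlier results of these data known, so this share lends no independent support. Adjusted p-values come from edgeR's quasi-likelihood test with Benjamini-Hochberg adjustment over all genes tested. In 3 of the 10, the falling ones, the ranges of the libraries did not overlap, beside 8.2% of all genes. The median log2 fold change of the 10 was 0.067, beside 0.0014 over all genes.

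Flpo livers (named for 7b) against GFP livers (control) gave 0 called genes of the 10, beside 0.0288% of all genes, which is 4 genes. At an unadjusted p under 0.05 there were 2 of the 10, Plin4 and Cidea, and 1353 of all genes. Limma-voom also called 0 of the 10, and so did DESeq2, which gave no adjusted p for Cidec. Cidec alone had ranges that did not overlap, with Flpo above GFP, beside 1.55% of all genes.

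Flpo livers against Cre livers gave 4 called genes of the 10, beside 13.7% of all genes. Plin4, Cidea and Fitm1 were higher in Flpo and Plin2 was lower. The Flpo and Cre groups also bear the names of different proteins, so this comparison does not isolate the splice form. Ranges did not overlap for 3 of the 10, again Plin4, Cidea and Fitm1, beside 7.84% of all genes. The comparisons share libraries, so their values are given side by side and are not separate evidence.

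**Figure D2:**
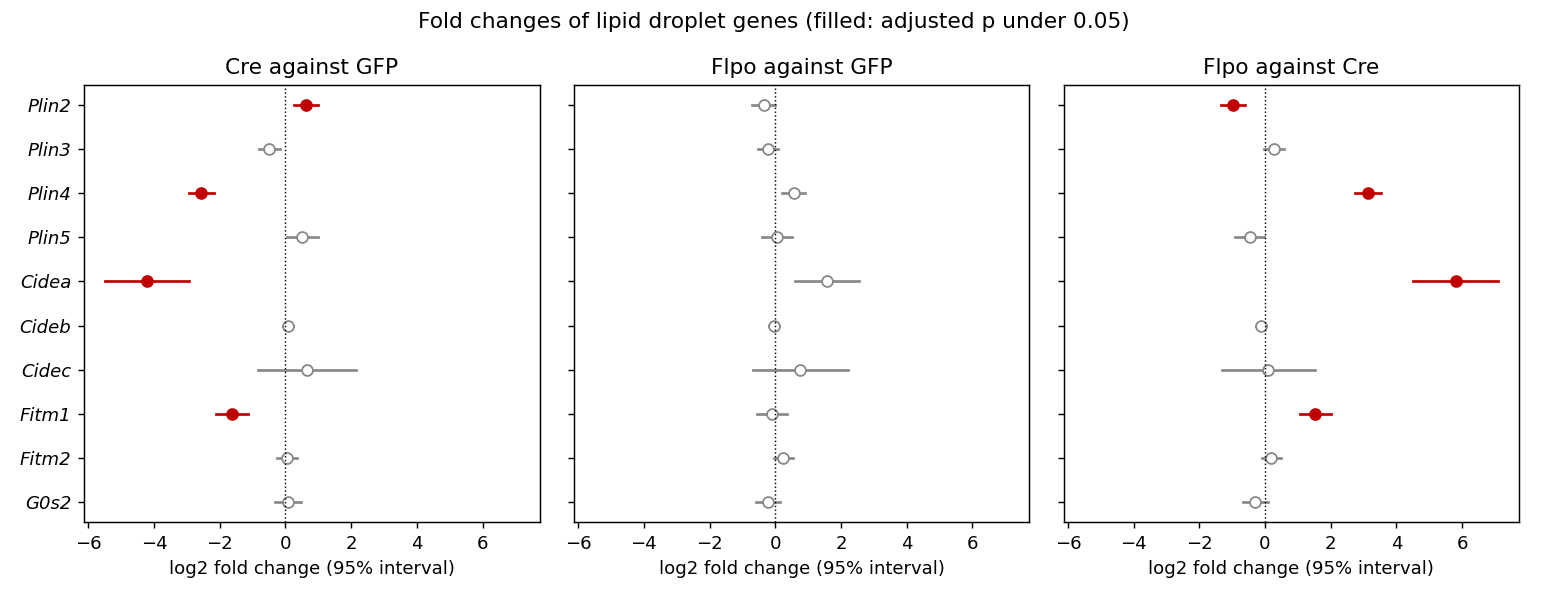
Points are log2 fold changes of the 10 genes from edgeR in the 3 comparisons, with lines for 95% intervals (normal approximation), filled where the adjusted p is under 0.05. In Cre against GFP the filled points are Plin4, Cidea and Fitm1 below 0 and Plin2 above it, in Flpo against GFP none is filled, and in Flpo against Cre the same 4 genes lie on the opposite sides.

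Plin4 encodes a large perilipin that binds newly forming droplets and lies on chromosome 17 from 56100591 to 56109803 (GRCm38, minus strand). Its level was 47.2, 38.3, 48.3, 74.4 and 45.2 CPM in the GFP libraries. In Cre libraries it was 10.5, 10.3, 6.64, 5.89 and 9.54 CPM, and in Flpo libraries it ran from 59.2 through a median of 72.1 to 92.6 CPM. Every Cre library lay below every GFP and Flpo library, and GFP replicate 4 fell within the Flpo range.

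Plin4 was 5.91-fold lower in Cre than in GFP (log2 fold change -2.56, SE 0.20, adjusted p = 1.32e-06, edgeR), the second smallest p-value of all genes tested. Flpo against GFP gave 0.57 (SE 0.18, adjusted p = 0.324). Flpo against Cre gave 3.13 (SE 0.20, adjusted p = 1.04e-07, edgeR), the smallest p-value of that comparison. Plin4 made up 1.31% ± 0.330 of the summed TPM of Plin2, Plin3, Plin4 and Plin5 in GFP, 0.156% ± 0.0706 in Cre and 2.42% ± 0.689 in Flpo livers.

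Plin5 encodes the perilipin that tethers droplets to mitochondria and is abundant in oxidative tissue. It lies next to Plin4 on the same strand, from 56111601 to 56117596 on chromosome 17, its end 1797 bases ahead of the start of Plin4, and was not called where Plin4 fell. GFP libraries had 58.9 to 90.2 CPM and Flpo libraries 58.0 to 97.8. Cre replicates 1 to 4 had 77.7 to 86.6 CPM and Cre replicate 5 had 208. Cre against GFP gave 0.52 (SE 0.24, adjusted p = 0.200), and 0.13 (adjusted p = 0.640) without Cre replicate 5, both by edgeR. Flpo against GFP gave 0.049 (SE 0.23) and Flpo against Cre -0.47 (SE 0.23, adjusted p = 0.204), the last being -0.077 without that library.

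Plin2, also called adipophilin, is the main perilipin of hepatocytes, on chromosome 4 from 86648386 to 86670060 (minus strand). GFP libraries had 938, 1103, 811, 1058 and 665 CPM. Cre libraries had 876, 1699, 1295, 1271 and 1910 CPM, and Flpo libraries ran from 561 through 700.3 to 959 CPM. Cre replicates 2 to 5 lay above every GFP library, Cre replicate 1 lay among them, and the Flpo range overlapped both.

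Plin2 rose in Cre (log2 fold change 0.62, SE 0.19, adjusted p = 0.0470, edgeR). This call held in 8 of 27 alternative settings, in which the value ran from 0.41 to 0.76 and the adjusted p up to 0.435. It was lost without any 1 of GFP replicates 1, 3, 4 or 5, Cre replicates 2, 3 or 5, or Flpo replicates 2, 3, 5 or 6, with adjusted p from 0.0502 to 0.121. Flpo against GFP gave -0.36 (SE 0.18, adjusted p = 0.542) and Flpo against Cre -0.98 (SE 0.18, adjusted p = 0.00168, edgeR). Plin2 made up 89.6% ± 1.48 of the perilipin TPM in GFP, 92.3% ± 2.04 in Cre and 86.2% ± 3.39 in Flpo. Its ratio to Plin4 in TPM was 54.98 to 111 in GFP, 324 to 835 in Cre and 23.4 to 54.4 in Flpo livers, with no overlap between groups.

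Plin3, or TIP47, is a perilipin found in the cytosol and on new droplets, on chromosome 17 from 56277476 to 56292873. GFP libraries had 30.1 to 52.0 CPM, Cre 20.6 to 38.7 and Flpo 29.7 to 43.7, with overlap between all groups. Cre against GFP gave -0.49 (SE 0.16, adjusted p = 0.0634, edgeR), and the test was passed in 6 of 27 alternatives, among them without GFP replicate 5 (adjusted p = 0.0295) and without Cre replicate 5 (adjusted p = 0.0301). The other comparisons gave -0.21 and 0.28 (adjusted p = 0.686 and 0.262). Plin1, the perilipin of fat cells, was not among the 10 and reached at most 0.392 TPM.

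**Figure D3:**
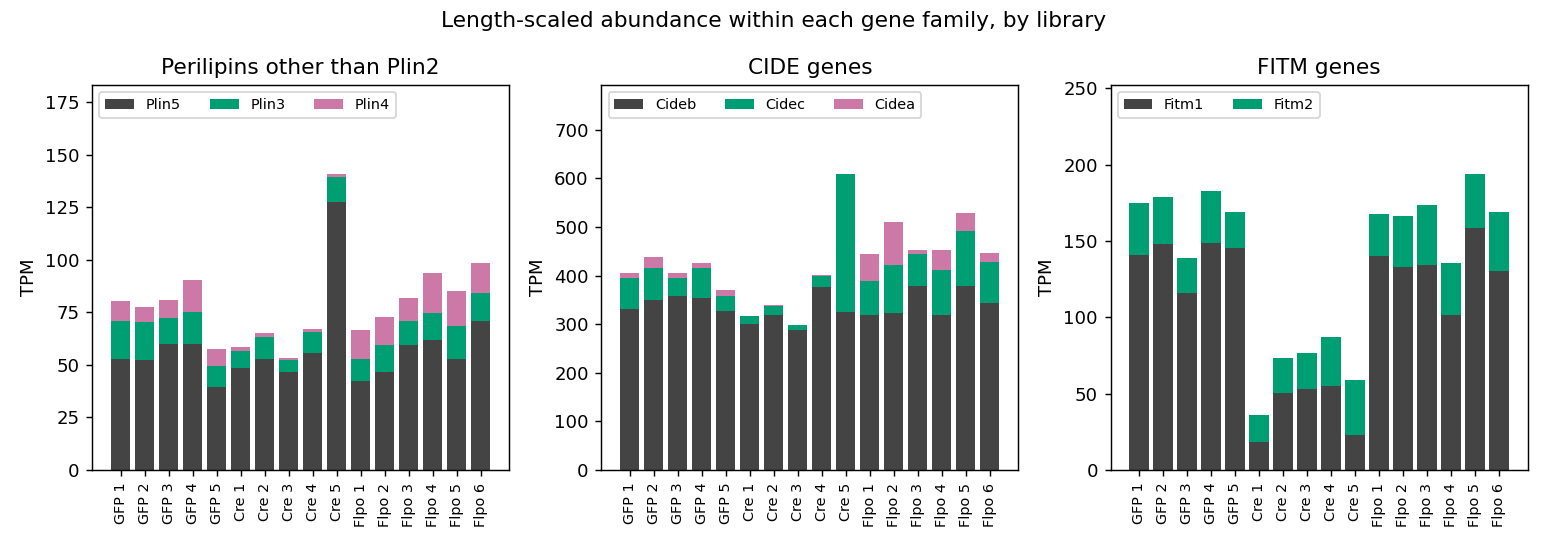
Stacked bars give the TPM of each gene in each library for perilipins other than Plin2, for CIDE genes and for FITM genes, on axes that start at 0. The Fitm1 part of the FITM bar reaches 18.3 to 54.6 TPM in Cre libraries, against 101 to 159 TPM in those of GFP and Flpo, and Cidec is 283 TPM in Cre replicate 5.

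Cidea encodes a CIDE protein of brown fat that also appears in fatty liver. GFP libraries had 7.51, 15.3, 7.97, 7.10 and 10.4 CPM. Cre libraries had 0.179, 1.08, 0.261, 0.632 and 0.392 CPM, from 5.03 to 30.1 estimated counts, and Flpo libraries ran from 5.14 through 26.1 to 64.9 CPM. All Cre libraries lay below all others, while the 6 Flpo libraries differed among themselves by more than 10-fold and spanned the GFP range.

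Cidea was 18.6-fold lower in Cre than in GFP (log2 fold change -4.22, SE 0.65, adjusted p = 0.00107, edgeR). Limma-voom gave an adjusted p of 0.0697, the 1 of 27 alternatives in which it was not called. Flpo against GFP gave 1.59 (SE 0.50, adjusted p = 0.340). Flpo against Cre gave 5.81 (SE 0.66, adjusted p = 6.49e-05, edgeR). Of the summed CIDE TPM, Cidea made up 3.32% ± 1.05 in GFP, 0.172% ± 0.136 in Cre and 8.62% ± 5.79 in Flpo.

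Cidec, called Fsp27 in fat cells, promotes large droplets and lies on chromosome 6 from 113424634 to 113435760 (minus strand). GFP libraries had 53.1, 57.6, 35.6, 50.3 and 28.1 CPM. Cre libraries had 16.3, 19.9, 9.88, 20.4 and 289 CPM, and Flpo libraries ran from 59.9 through 74.6 to 98.0 CPM. Cre replicates 1 to 4 lay below every GFP and Flpo library, and Cre replicate 5 lay above them all.

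With all libraries, Cidec was called in no comparison: Cre against GFP gave 0.66 (SE 0.76, adjusted p = 0.649), Flpo against GFP 0.76 (SE 0.74, adjusted p = 0.775) and Flpo against Cre 0.10 (SE 0.73, adjusted p = 0.951), all by edgeR. Without Cre replicate 5, the 4 remaining libraries averaged 16.6 ± 4.84 CPM, Cre against GFP was -1.43 (adjusted p = 0.00203) and Flpo against Cre was 2.19 (adjusted p = 5.81e-05). The sign of the Cre value thus turned without 1 library. Flpo against GFP, where that library enters only through the shared estimate of spread, kept its value, with an adjusted p of 0.228 without it and 0.156 when Flpo and GFP were fitted alone.

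Cideb, the CIDE gene of healthy hepatocytes, which is known for its part in VLDL lipidation, had the smallest coefficient of variation of the 10 in every group. It had 251 to 305 CPM in GFP, 275 to 301 in Cre and 238 to 306 in Flpo libraries. The log2 fold changes were 0.081, -0.028 and -0.11 with SE of 0.079 to 0.082 in each comparison. Cideb lies on chromosome 14 from 55754050 to 55758458 and shares 1136 of its 1488 exonic bases with Nop9 on the opposite strand. Whether counting used strand is not given in the sources used here, so reads of these genes may have been mixed. Nop9 itself was at 5.66 to 10.9 TPM, against 289 to 379 for Cideb.

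Fitm1, the FITM gene best known from muscle, lies on chromosome 14 from 55575617 to 55576954 (plus strand). GFP libraries had 76.2, 84.0, 70.5, 80.6 and 87.5 CPM. Cre libraries had 11.98, 33.1, 38.2, 30.8 and 14.8 CPM, and Flpo libraries ran from 54.1 through 77.6 to 88.6 CPM. Cre libraries lay below all others, with replicates 1 and 5 lowest, and the Flpo range enclosed the GFP range.

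Fitm1 was 3.09-fold lower in Cre than in GFP (log2 fold change -1.63, SE 0.25, adjusted p = 0.000704, edgeR). Flpo against GFP gave -0.092 (SE 0.23, adjusted p = 0.922) and Flpo against Cre 1.54 (SE 0.24, adjusted p = 0.000574). An antisense gene shares 109 of the 971 exonic bases of Fitm1. Skeletal muscle markers summed to at most 5.05 TPM in any library, and Ckm and Mb were at 0 in all libraries.

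Fitm2, the FITM gene found in most tissues, lies on chromosome 2 from 163466379 to 163472629 and was not called in any comparison. It had 77.4 to 102 CPM in GFP, 63.5 to 133 in Cre and 85.7 to 125 in Flpo libraries. Its log2 fold changes were 0.055 (SE 0.15), 0.24 (SE 0.15) and 0.19 (SE 0.15) in the order given above. The ratio of Fitm1 to Fitm2 in TPM was 4.16 to 6.11 in GFP, 0.620 to 2.24 in Cre and 2.96 to 5.04 in Flpo, so that Cre ratios lay below all others.

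G0s2, the lipase inhibitor, lies on chromosome 1 from 193272161 to 193273217. It had 156 to 229 CPM in GFP, 131 to 320.3 in Cre and 125 to 208 in Flpo libraries, and Cre replicates 2 and 4 were the highest and near the lowest of all. The log2 fold changes were 0.080 (SE 0.20), -0.21 (SE 0.19) and -0.29 (SE 0.19), none called.

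Cre replicate 5 was examined after its values had been seen. It held the highest TPM of all 16 libraries for Plin2, Plin5 and Cidec, while it held the highest value for 7.5% of 7024 genes with a mean of at least 5 TPM. Cidec at 283 TPM was 16.7 times the mean of the other Cre libraries, the highest such ratio of 7023 genes. Plin5 at 128 TPM was 2.51 times that mean. Plin4 and Cidea stayed low in the same library, at 1.58 and 0.483 TPM, within the range of the other Cre libraries.

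Genes that respond to PPAR alpha were high in this library too. It held the highest value for 9 of 18 PPAR alpha targets, among them Ehhadh, an enzyme of peroxisomal oxidation, at 1306 TPM (330.2 to 677 in the other Cre libraries), and Cyp4a14, a fatty acid hydroxylase, at 4326 TPM (1037 to 2527). Pnpla2, the lipase, stood at 151 TPM (57.7 to 79.3) and Hilpda, which inhibits it, at 10.9 TPM (2.20 to 4.07). Of the 7 PPAR gamma targets with at least 1 TPM on average 0 were highest there, and of 10 hepatocyte markers 3 were, Cps1, Tat and Hpd. Adipoq, which marks fat cells, was at 0.331 TPM in this library.

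Other proteins of the droplet surface were read from a separate list. Of 23 tested, 1 rose and 2 fell in Cre against GFP, beside the 9.55% above, and the median log2 fold change was 0.088. Dgat2, which makes triglyceride, fell from 555 ± 79.5 to 398 ± 68.6 CPM (adjusted p = 0.0206, edgeR), and Pcyt1a, which makes phosphatidylcholine for growing droplets, from 83.0 ± 13.3 to 56.9 ± 11.6 CPM (adjusted p = 0.0154, edgeR). Without GFP replicate 5 or Cre replicate 1 the adjusted p of Dgat2 was 0.0613 and 0.0505. Pnpla2 rose from 87.7 ± 8.32 to 142 ± 64.5 CPM (adjusted p = 0.0391, edgeR), a call that held in 12 of 27 alternatives and not without Cre replicate 5 (0.38, adjusted p = 0.0546).

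Flpo against GFP called 0 of these 23. In Flpo against Cre 5 were higher and 1 was lower: Dgat2 (0.77, adjusted p = 0.000453), Pcyt1a (0.80, 0.000552), Aifm2 (0.72, 0.00530), Mettl7a1 (0.73, 0.00964) and, named outside the rule, Hsd17b13 (0.60, 0.0282) were higher and Pnpla2 (-0.62, 0.0431) was lower, by edgeR. With the clock score described below as a covariate, Dgat2, Pcyt1a, Aifm2, Mettl7a1 and Pnpla2 were not called in Flpo against Cre (adjusted p from 0.426 to 0.875). Their values were then 0.32, 0.55, 0.52, 0.57 and -0.33 in that order. In Cre against GFP, Dgat2 went from -0.48 to -0.19 (adjusted p = 0.569) and Pcyt1a from -0.54 to -0.39 (adjusted p = 0.301), also not called. Of 7 tested genes of lipolysis 1 fell and 1 rose in Cre against GFP, beside 9.55% of all genes. Ces1d, a lipase of the endoplasmic reticulum, fell from 890.3 ± 302 to 515 ± 140 CPM (adjusted p = 0.0479, edgeR). It was called in 10 of 27 alternatives and, at -0.64, not without Cre replicate 5 (adjusted p = 0.0971). The riser was Pnpla2, the same gene that was counted among the 23. With the clock score neither was called in Cre against GFP by edgeR. Ces1d went from -0.79 to -0.34 (adjusted p = 0.669) and Pnpla2 from 0.70 to 0.51 (adjusted p = 0.455). In Flpo against Cre, Ces1d was the 1 higher and Pnpla2 the 1 lower of the 7, beside 13.7% of all genes. Ces1d was called there in 26 of 27 alternatives.

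Among 14 regulators of droplet genes, 1 was called in Cre against GFP, a share near the 9.55% of all genes. It was Pparg, which fell from 18.4 ± 3.83 to 7.21 ± 1.28 CPM (log2 fold change -1.35, SE 0.19, adjusted p = 0.000223, edgeR). In TPM it was 9.29 to 18.8 in GFP, 3.45 to 5.81 in Cre and 9.72 to 16.7 in Flpo libraries, Cre below all others. Its call in Cre against GFP held in all 27 alternatives, and its higher level in Flpo against Cre (adjusted p = 0.000159, edgeR) was not called with the clock score (adjusted p = 0.414). Of 9 tested PPAR gamma targets 5 fell and 1 rose in Cre against GFP, beside the same 9.55%. Cd36, a fatty acid transporter, fell from 224 ± 52.1 to 33.9 ± 18.6 CPM (adjusted p = 2.00e-05), Mogat1, an acyltransferase, from 9.68 ± 1.84 to 1.57 ± 1.18 (0.000690), and Cfd, which encodes adipsin, from 10.9 ± 3.62 to 1.42 ± 0.446 (0.000136), by edgeR. Aldh1a7 also fell. The other called genes, named outside the rule, were Aqp7, a glycerol channel, which fell, and Lpl, a lipase, which rose from 14.7 ± 1.67 to 34.9 ± 17.0 CPM (adjusted p = 0.00589).

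Of 18 PPAR alpha targets 3 rose in Cre against GFP and 0 fell, beside the 9.55% of all genes called: Ehhadh (1.81, SE 0.28, adjusted p = 0.000677, edgeR), Cpt1a and Acot1. Ehhadh was called in all 27 alternatives, Cpt1a in 17 and Acot1 in 9. Without Cre replicate 5, Cpt1a went from 0.42 to 0.32 (adjusted p = 0.101) and Acot1 from 1.11 to 0.80 (adjusted p = 0.121), while Ehhadh stayed called at 1.42. Flpo against GFP called 0 genes of the regulator and both target lists. In Flpo against Cre, 5 PPAR gamma targets were higher and 2 lower, and 4 PPAR alpha targets were lower, beside the 13.7% of all genes. Cd36 and Cfd were called in all 27 alternatives there. With the clock score as a covariate, Mogat1 (3.24, adjusted p = 0.144) and Aldh1a7 (0.27, 0.623) were not called, nor were the 4 PPAR alpha targets Ehhadh (-1.61, 0.199), Fgf21 (-1.16, 0.715), Pdk4 (-0.81, 0.745) and Acot1 (-1.49, 0.404), by edgeR. Acot1 was called in 14 of 27 alternatives and not without Cre replicate 5 (-0.77, adjusted p = 0.0999), and the other 5 genes were called in 26. Earlier results of these data showed the direction of Plin4, Cd36, Pparg and Cfd, so these lists lend no independent support.

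Genes of the circadian clock differed between groups as well. A clock score was taken as the mean z score of 4 clock genes minus the mean z score of 8 clock genes of opposite phase. It was -0.90 to 0.72 in GFP libraries, -0.39 to 2.08 in Cre and -1.76 to -0.42 in Flpo. Of 18 clock genes 4 were lower and 0 higher in Cre than in GFP, beside the 9.55% of all genes. Flpo against Cre called 14, of which 10 were higher and 4 lower, beside 13.7%, and Flpo against GFP called 0, beside 0.0288%. Cre replicate 4 had a score of -0.39, inside the GFP range. Its levels were 5.89 CPM for Plin4, 0.632 for Cidea, 20.4 for Cidec and 30.8 for Fitm1, each below every GFP library. Plin2, at 1271 CPM, was above every GFP library. For Cidec the Cre libraries had no shared side, since Cre replicate 5 lay above every GFP library.

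With the score as a covariate, Cre against GFP remained called for Plin4 (-2.64, adjusted p = 0.000277), Cidea (-4.12, 0.0252) and Fitm1 (-1.39, 0.0405), and not for Plin2 (0.47, 0.435), by edgeR. In Flpo against Cre, Plin4 (3.25, adjusted p = 0.00117) and Cidea (5.64, 0.0449) remained called and Fitm1 (1.15, 0.383) and Plin2 (-0.74, 0.487) did not. Scores of GFP libraries overlapped those of Flpo, and those of Cre only through Cre replicate 4. Flpo scores were at most -0.42 and Cre scores at least -0.39, so these groups shared no range of the score. The part of the clock in the remaining differences was not tested further.

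**Figure D4:**
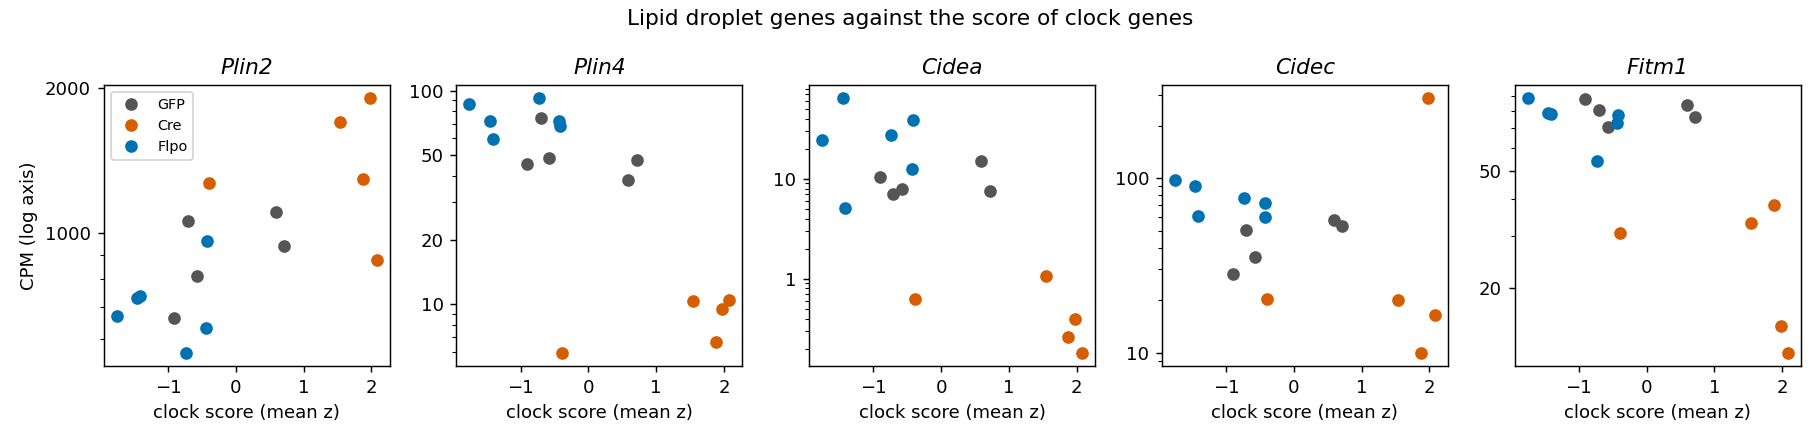
Each panel plots the CPM of 1 gene (log axis) against the clock score with 1 point per library, coloured by group. The score is a difference of mean z scores, which the axis labels as mean z. The Cre library at a score of -0.39 has Plin4, Cidea and Fitm1 no higher than the highest of the Cre libraries at scores of 1.54 to 2.08.

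Markers of other cells were read beside these genes, since in bulk liver fewer cells of a type and less RNA per cell cannot be told apart. Of 12 stellate cell markers 5 fell and 0 rose in Cre against GFP, beside 9.55% of all genes called. In Flpo against Cre 6 were higher and 0 lower, beside 13.7% of all genes. Their summed levels were 97.3 to 159 TPM (GFP), 61.3 to 109 TPM (Cre) and 124 to 179 TPM (Flpo). The part of these cells in the result was not tested. None of 9 Kupffer cell markers was called in any comparison by edgeR. Of 10 markers of lipid-associated macrophages, cells that gather at dying fat-laden hepatocytes, 2 rose and 1 fell in Cre against GFP, beside the same 9.55%. Lpl, which rose, is also on the PPAR gamma list. In Flpo against Cre 2 of these 10 were higher and 3 lower, beside 13.7%. Of the 10 hepatocyte markers themselves 1 rose and 1 fell in Cre against GFP, beside 9.55%, and 0 were higher and 1 lower in Flpo against Cre, beside 13.7%. Of 9 endothelial and 6 tested cholangiocyte markers 1 each rose in Cre against GFP, again beside 9.55% of all genes. In Flpo against Cre 1 endothelial marker was lower, and 1 cholangiocyte marker was higher and 1 lower, beside 13.7%. Neither of the 2 tested neutrophil markers was called. Fat cell markers summed to 19.4 to 39.0 TPM in GFP, 8.03 to 18.5 in Cre and 25.2 to 61.3 in Flpo, of which Cfd, also on the PPAR gamma list, is the called gene, Adipoq reached at most 0.510 TPM, and Ucp1 was at 0 except in Flpo replicate 6 (2.12 TPM).

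Across the 16 libraries, the genes most like Plin4 in log2 CPM were Ppl (Pearson r = 0.96), Cryzl2 (0.95) and Lcn2 (0.94). Cidea was most like Cfd (0.94), Kbtbd11 and Fam126a, Fitm1 most like Dhrs7b (0.97), Map3k15 and Flot2, and Plin2 most like Gm15441 (0.96), Slc16a1 and Map7. Cidec was most like Abr (0.92), Acacb and Gdf2, Plin5 most like Tmem82 (0.91, or 0.68 without Cre replicate 5), and Plin3 most like Osbpl7 (0.91). Cideb, Fitm2 and G0s2 were most like Nt5dc2 (0.82), Grpel2 (0.88) and 1700052K11Rik (0.81). These values share the group means and are descriptions.

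Among the 10 genes, Plin4 and Cidea varied together (r = 0.92, n = 16 libraries), as did Cidea and Fitm1 (0.85) and Plin4 and Fitm1 (0.80), while Plin2 and Plin4 varied in opposite directions (-0.76). With each group's mean taken out, Plin4 and Cidea gave 0.039, Cidea and Fitm1 0.27 and Plin4 and Fitm1 -0.45, so that these values were lower within groups than over all libraries. On that scale Plin5 and Cidec gave 0.81 with all libraries and 0.099 without Cre replicate 5, and Plin3 and Cidec gave 0.70 and 0.93.

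**Figure D5:**
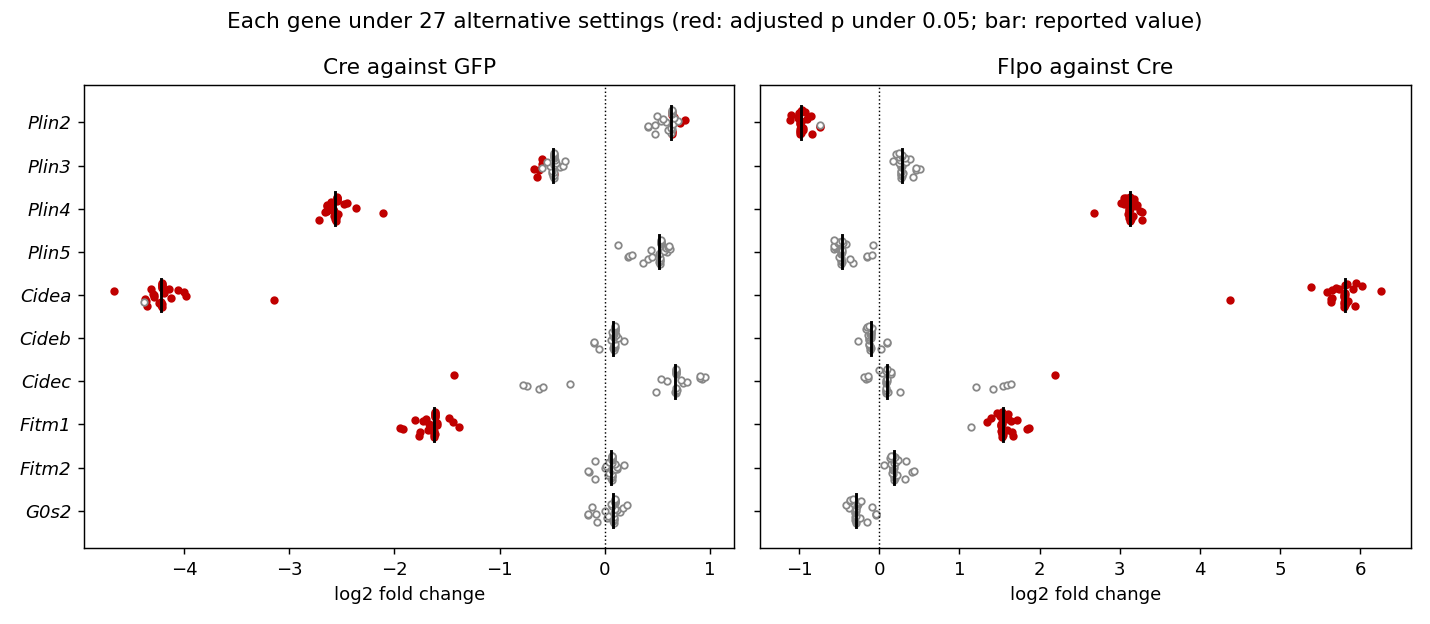
Each circle is the log2 fold change of a gene under 1 of 27 alternative settings, red where the adjusted p is under 0.05, and the black bar is the reported value. Plin4 and Fitm1 are red in all 27 in Cre against GFP, Plin2 in 8, and Cidec is red only without Cre replicate 5, at -1.43 in Cre against GFP and 2.19 in Flpo against Cre.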

How the data were processed

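Liver polyA RNA of 16 libraries was read as paired ends on a NovaSeq, per the labels. The submitters' processing notes name cutadapt, STAR and build mm10. Which program counted reads, and whether it used strand, is not given in the sources used here. The deposited values are estimated counts, 31.7% of them not whole, and TPM, both made by the authors. Counts were rounded for testing. Groups and replicate numbers come from the titles, and no 2 libraries were identical.

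Counts were tested with edgeR 4.0.16 (R 4.3.3; TMM scaling, filterByExpr with a minimum count of 10, robust quasi-likelihood test) on all 16 libraries, with Benjamini-Hochberg adjustment over 13905 genes and a threshold of 0.05. CPM values use TMM-scaled library sizes. Alternatives used DESeq2 1.42.0 and limma 3.58.1, other scalings and filters, the TPM table with 1 or 0.1 added, a replicate block, the clock score and each library left out. Positions come from GENCODE on GRCm38 and promoter windows from RefSeq. The 10 genes and all gene lists were chosen with earlier results of these data known. All 10 genes are named, with the called genes of each other list, at most 4 per list and comparison by smallest adjusted p, and the 3 genes of highest Pearson r with each. Correlations without Cre replicate 5 were added after seeing the data. A comparison of protein sequences was not made.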

Additional observations from a re-analysis of the deposited data

Results flagged for a closer look

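Of 30 groups of libraries (10 genes in 3 groups), 3 held a library whose gap to its nearest neighbour was large for the group's range. About 1 in 20 groups would pass this limit if values were independent and normally distributed. CPM values were not shown to be so, and the genes share libraries, so that rate is no firm benchmark here. Plin4 was at 74.4 CPM in GFP replicate 4, beside 38.3 to 48.3 in the other GFP libraries. Plin5 was at 208 CPM in Cre replicate 5, beside 77.7 to 86.6 in the other Cre libraries. Cidec was at 289 CPM in Cre replicate 5, beside 9.88 to 20.4, and its gap made up 0.963 of the group's range.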

How the results depend on the processing

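Under 27 alternatives the fall of Plin4 and Fitm1 in Cre against GFP and the higher Plin4 and Cidea in Flpo against Cre kept their direction and their call. Of the 10 genes, limma-voom called 2 in Cre against GFP, and the clock score as a covariate left 2 in Flpo against Cre. Leaving out 1 library gave 3 to 5 calls in Cre against GFP and 4 to 5 in Flpo against Cre, while Flpo against GFP gave 0 each time. Over all genes, Cre against GFP (1328 called) gave 834 with only those groups fitted, 2110 on log2(TPM + 1), 2139 on log2(TPM + 0.1) and 186 with the clock score. Flpo against GFP (4 called) gave 72 by DESeq2, 0 by limma-voom, 1 with only those groups, 0 with the replicate block, 0 with the clock score and 0 to 15 with 1 library left out. Flpo against Cre (1906 called) gave 29 with the clock score. Library totals alone moved the median of all genes by -0.14 in Cre against GFP, where 15.3% of calls were then higher (552 of 1328 as reported), and log2(TPM + 1) moved it by -0.15, with 9.15% higher; in Flpo against Cre 79.9% and 89.5% were higher.

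Signs turned for genes that were not called. In Cre against GFP, library totals, log2(TPM + 1) and log2(TPM + 0.1) gave -0.061, -0.10 and -0.10 for Cideb, -0.096, -0.15 and -0.16 for Fitm2 and -0.071, -0.16 and -0.16 for G0s2. Cidec gave -0.63 by limma-voom, -0.59 with the replicate block, -0.74 and -0.78 on the TPM scales, -0.33 with the clock score and -1.43 without Cre replicate 5, the 1 turned value that was called. Values with 1 library left out ran from -1.43 to 0.95 for Cidec, from -0.094 (without Cre replicate 5) to 0.18 for Fitm2 and from -0.12 (without Cre replicate 2) to 0.21 for G0s2, which gave -0.084 with the clock score. In Flpo against GFP, Plin5 gave -0.054 with the replicate block, and with 1 library left out Plin5 ran from -0.033 to 0.13 and Cideb from -0.066 to 0.011. In Flpo against Cre, Cideb gave 0.025, 0.095 and 0.095 by library totals and the TPM scales, and Cidec ran from -0.19 (without Cre replicate 3) to 2.19 (without Cre replicate 5). The cause was not tested.

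Same-numbered libraries deviated together by -0.16 to 0.12, so the numbers were not taken to pair them. The replicate block, without Flpo replicate 6, left Plin4 at -2.53 and called 3, 0 and 4 of the 10. Depth limits Cidea in Cre, at 5.03 to 30.1 estimated counts.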
